A study of Mus musculus with 8 samples.

Results

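Imprinted genes are transcribed mainly from the maternal or mainly from the paternal copy. The set described here held 41 mouse imprinted genes, chosen by name and grouped by expressed allele and by imprinted cluster; the Meg3 locus was not among them. Of these, 21 are known for paternal expression, 18 for maternal expression, and Gnas and Grb10 for either, depending on transcript or tissue. These labels were given by gene name, and which copy the cells studied here express was not measured. On the arrays, 38 of the 41 had a probe set that lists exactly 1 gene symbol, out of 18140 such genes in all, and 30 of the 41 were bright enough to be tested among 12394 genes. H19, Zrsr1 and Slc22a3 had no value of their own and were not analysed here by name.

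RNA of V6.5 cells, an established mouse embryonic stem cell line, was hybridised to 8 Affymetrix arrays of 1 colour. All cells, controls included, received a virus with a hairpin RNA in the presence of polybrene (8 µg/ml) and were selected for 4 days in puromycin (4 µg/ml), and 100 ng of total RNA from day 5 was labelled. There were 4 groups of 2 arrays: CapH2 knockdown (gene Ncaph2, a subunit of condensin II; hairpins 3 and 4), Smc2 knockdown (a subunit of condensin I and II; hairpins 1 and 2), Smc1 knockdown (gene Smc1a, a cohesin subunit; 1 hairpin, replicates 1 and 2) and a control hairpin against GFP (1 hairpin, replicates 1 and 2). Array values are given in the order CapH2 hairpin 3 and hairpin 4, Smc2 hairpin 1 and hairpin 2, Smc1 replicate 1 and replicate 2, GFP replicate 1 and replicate 2, or for a named group in that group's order. Because Smc1 and GFP had 1 hairpin each, effects of the hairpin sequence and of the knockdown cannot be told apart in them. The arrays measured total RNA of a gene, so a changed level does not show which parental copy it came from.

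Array medians lay between 62.5 and 74.5 intensity units, and no detection calls were used. The knocked-down genes were low where the labels say so: Smc1a measured 534.8 and 453.7 against 4165 and 3662 on the GFP arrays, Ncaph2 397.5 and 429.5 against 3469 and 3168, and Smc2 2234 and 2859 against 8756 and 7146. Markers of the labelled cell type were bright on every array. The summed level of 9 embryonic stem cell markers, Pou5f1, Nanog and Sox2 among them, was 113400 to 131600 on the CapH2, Smc2 and GFP arrays and lower, at 82610 and 98230, on the Smc1 arrays, where 6 of the 9 were called lower. Summed markers of other cell types differed between Smc1 and GFP in both directions. Over all genes tested, 14.0% were called in Smc1 against GFP, 9.30% higher and 4.69% lower. The summed trophoblast markers were 50440 and 36520 in Smc1, 19220 and 26970 in GFP and 10320 to 19800 on the condensin arrays, and 3 of 9 tested were called (2 higher, 1 lower). The summed feeder fibroblast markers were 2402 to 2647 on Smc1, 1580 to 1764 on GFP and 1870 to 2439 on the condensin arrays, with 1 of 11 tested called, and 4 of the 16 listed (Lum, Twist2, Prrx1 and Fap) lay below the lowest array median on every array. Primitive endoderm markers summed to 1556 and 1460 in Smc1, 746.2 and 1301 in GFP and 950.3 to 2059 on the condensin arrays (2 of 9 tested called higher). Neural markers summed lower in Smc1, to 9099 and 7451, against 15150 and 14280 in GFP and 13450 to 14990 on the condensin arrays. Of 7 neural genes tested, 3 were called higher and 3 lower. In Smc1 against the mean of both condensin knockdowns, 7 of 9 trophoblast genes were called (6 higher, 1 lower) and 5 of 9 stem cell genes were called lower. There 3 of 7 neural genes were called lower, 2 of 11 feeder fibroblast genes were called (1 higher, 1 lower) and 0 of 9 primitive endoderm genes were called. Over all genes 7.75% were called in that comparison. The part of these cell types in the results on imprinted genes was not tested. In such bulk RNA, fewer cells of a type and less RNA per cell cannot be told apart.

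Imprinted genes lie in clusters that share an imprinting control region, a stretch of DNA methylated in the germ line of only the mother or only the father. After fertilisation the mark is kept by the zinc finger protein ZFP57, which binds a methylated hexamer, with TRIM28 and DNMT1. At some control regions CTCF binds the unmethylated copy and, together with cohesin, shapes the contacts between enhancers and promoters. Many of the genes act on growth of the embryo and placenta: as a rule of thumb, paternally expressed genes promote it and maternally expressed genes restrain it. Plagl1, a zinc finger transcription factor, is known as a regulator of other imprinted genes.

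Promoter windows of 300 bases (RefSeq, GRCm38.p6) were found for 34 of the 41 genes, 54 windows in all. The array files name no genome build, so these positions belong to the reference only. Windows of 4 genes called in the Smc1 knockdown against GFP are printed, because Plagl1, Mest and Peg3 are known to start at imprinting control regions, while Ndn takes its mark from a distant one. Capitals mark the ZFP57 hexamer TGCCGC, read on both strands (GCGGCA is its reverse complement). The Plagl1 window lies at chr10:13090582-13090881 on the plus strand, 1 of 3 Mest windows, at chr6:30737800-30738099 on the plus strand, the Ndn window at chr7:62348027-62348326 on the plus strand and the Peg3 window at chr7:6730370-6730669 on the minus strand.
Plagl1: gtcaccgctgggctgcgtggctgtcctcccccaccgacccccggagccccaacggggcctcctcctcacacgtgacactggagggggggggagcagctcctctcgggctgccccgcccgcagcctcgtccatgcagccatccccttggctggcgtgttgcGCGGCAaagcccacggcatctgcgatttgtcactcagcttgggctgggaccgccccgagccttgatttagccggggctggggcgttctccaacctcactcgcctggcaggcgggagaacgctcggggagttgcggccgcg
Mest: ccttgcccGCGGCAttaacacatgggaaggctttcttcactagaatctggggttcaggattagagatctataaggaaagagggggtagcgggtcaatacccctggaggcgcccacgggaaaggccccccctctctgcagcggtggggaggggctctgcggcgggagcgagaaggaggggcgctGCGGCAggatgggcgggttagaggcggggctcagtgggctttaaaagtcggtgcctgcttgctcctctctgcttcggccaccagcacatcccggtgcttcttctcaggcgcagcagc
Ndn: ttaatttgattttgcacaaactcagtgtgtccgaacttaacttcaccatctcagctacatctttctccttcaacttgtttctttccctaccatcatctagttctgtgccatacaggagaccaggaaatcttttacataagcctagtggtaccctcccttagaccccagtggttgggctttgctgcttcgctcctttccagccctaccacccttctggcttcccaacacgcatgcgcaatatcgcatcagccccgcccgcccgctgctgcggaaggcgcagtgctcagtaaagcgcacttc
Peg3: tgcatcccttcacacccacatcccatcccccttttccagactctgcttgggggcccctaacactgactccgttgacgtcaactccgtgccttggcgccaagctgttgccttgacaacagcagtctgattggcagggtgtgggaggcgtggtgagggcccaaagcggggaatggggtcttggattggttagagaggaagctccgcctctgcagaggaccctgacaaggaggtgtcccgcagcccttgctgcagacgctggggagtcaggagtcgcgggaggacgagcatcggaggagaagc

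The Plagl1 window held 26 CpG dinucleotides and 1 hexamer, the Mest window 17 CpGs and 2 hexamers, the Ndn window 11 CpGs and the Peg3 window 13 CpGs. Of the other Mest windows, that at chr6:30737803-30738102 is nearly the same, and that at chr6:30733256-30733555 held 8 CpGs and 0 hexamers. Peg3 and Usp29 start 164 bases apart on opposite strands and their windows share 263 bases, so they have the same promoter region. Over the 54 windows the median was 14.5 CpGs, against 7 over 32851 windows of all genes. The median share of G and C letters was 58.0%, against 52.7%, and its part in the motif shares below was not tested. The hexamer was present in 12 of the 54 windows (22.2%), against 11.6% of all windows. The CTCF core letters AGGGGGC, on both strands, were in 12 windows (22.2%), against 10.6% of all. The YY1 letters GCCATNTT, on both strands, were in 4 (7.4%), against 6.1% of all. None of these motifs contains another, some windows of the same gene overlap, and a match to letters is no measured binding.

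The comparison of the Smc1 knockdown with GFP asks which imprinted genes differ when cohesin is depleted. A gene was called when its Benjamini-Hochberg adjusted p in limma was below 0.05 over the 12394 genes, and log2 changes are differences of mean log2(intensity + 16) with n = 2 arrays per group. Of the 30 genes tested, 6 were called higher (Plagl1, Peg10, Ndn, Sgce, Gnas and Mest), 1 was called lower (Peg3) and 23 were not called. Over all genes tested 14.0% were called, 9.30% higher and 4.69% lower. The 30 genes had a median change of 0.25, and that of all genes was 0.03. Peg10 passed the brightness filter only through the 2 Smc1 arrays, where it was high, so it could hardly enter without a difference; without it 6 of 29 were called and the median was 0.22. The count of 7 fell when any Smc1 or GFP array was left out, most of all without Smc1 replicate 1. It rose when Smc2 hairpin 1 or Smc2 hairpin 2 was left out. The calls over all genes, 1734 in the full fit, fell and rose in the same settings, so these shifts are not particular to the imprinted genes.

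By expressed allele, the calls among 17 paternally expressed genes were 5 higher and 1 lower, with a median of 0.41. Without Peg10 they were 4 higher and 1 lower of 16, with a median of 0.38. At an unadjusted p below 0.05 in limma there were 10 of the 17, Peg10 among them. Among 11 maternally expressed genes the count was 0 in limma, 2 of them at an unadjusted p below 0.05, with a median of 0.11 and a range from -1.17 (Ascl2) to 0.81 (Cdkn1c). The difference between the paternal and maternal groups was not tested, and which copy these cells express was not measured. Over all genes tested, 14.0% were called, 9.30% higher and 4.69% lower, and 31.2% had an unadjusted p below 0.05. Of 12 tested genes of the imprinted growth network, a list of imprinted genes reported to be co-expressed in growing tissues, 5 were called higher and 1 lower, with a median of 0.83. This list is drawn wholly from the 41 genes and was made with earlier results of these data known, so it is no independent evidence.

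**Figure D1:**
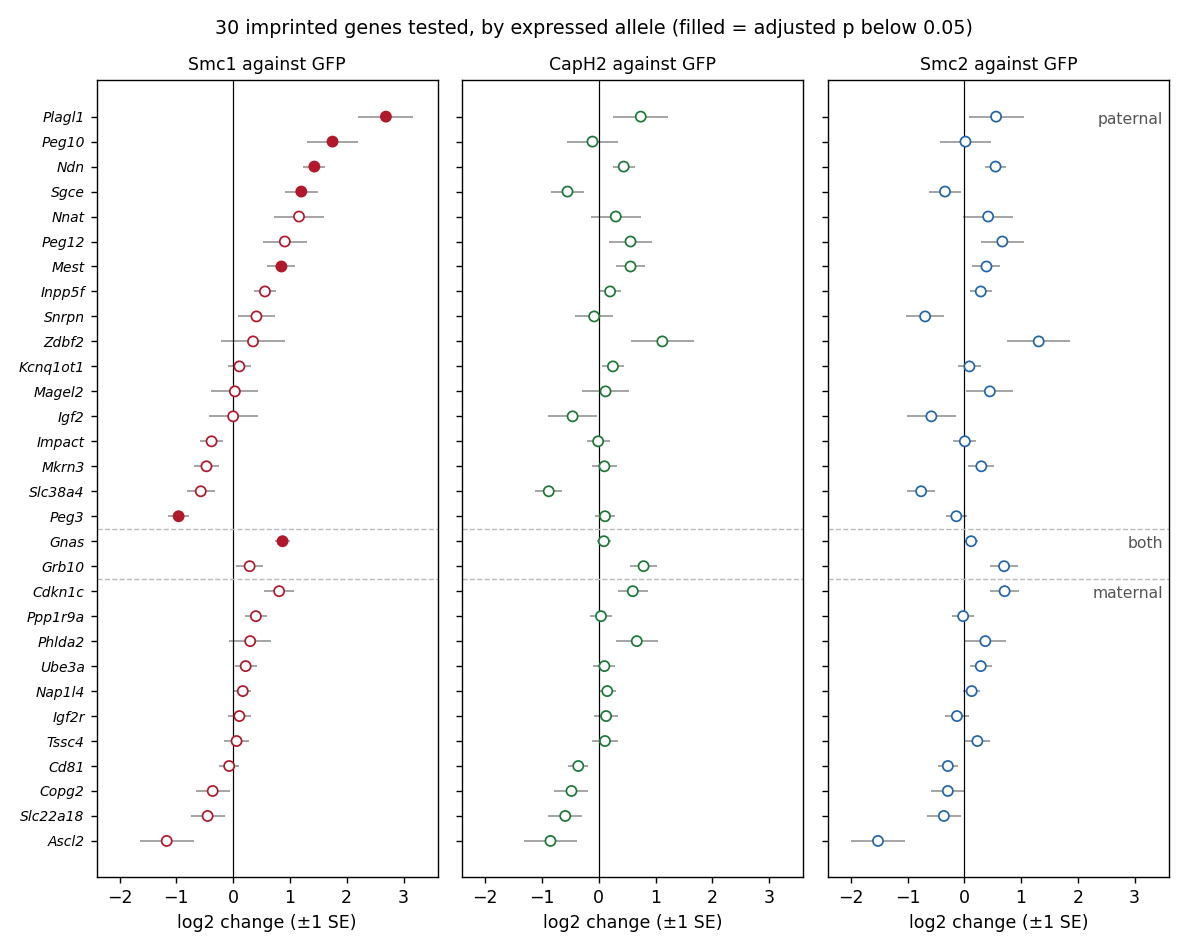
Log2 change (± 1 SE, n = 2 arrays per group) of the 30 tested imprinted genes in each knockdown against the same GFP arrays, ordered by expressed allele and by the Smc1 change. Filled points have an adjusted p below 0.05: 7 in the Smc1 panel, from -0.96 (Peg3) to 2.69 (Plagl1), and 0 in the CapH2 and Smc2 panels.

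Plagl1 had the highest change of the 30 genes. It measured 1010 and 368.7 on CapH2, 600.5 and 483.1 on Smc2, 3764 and 1545 on Smc1 and 292.6 and 445.6 on GFP. Both Smc1 arrays lay above the 6 others, and they differed from each other by 2.44-fold. The change against GFP was 2.69 (SE 0.484, adjusted p = 0.00808). It was 2.05 without Smc1 replicate 1 (adjusted p = 0.086) and 2.40 without GFP replicate 1 (0.0939). With the Actb 3' to 5' ratio of each array as a covariate it was 1.63 (adjusted p = 0.0568). The other Plagl1 probe sets were dim, with means of 34.7 and 11.8 units and changes of -1.11 and 0.70.

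Peg10 and Sgce are neighbours on chromosome 6 and share a paternally expressed promoter region. Peg10, a retrotransposon-derived gene needed in the placenta, measured 43.9 and 22.4 on CapH2, 24.7 and 52.1 on Smc2, 179.7 and 140.0 on Smc1 and 24.2 and 50.9 on GFP. All arrays other than the Smc1 pair were below the lowest array median, so the size of the change, 1.75 (SE 0.453, adjusted p = 0.0314), is not firm. The call was lost without any of the Smc1 and GFP arrays: leaving out Smc1 replicate 1 gave a change of 1.59 (adjusted p = 0.205) and leaving out its partner 1.92 (0.0803), while the change was 1.39 (0.202) without GFP replicate 1 and 2.12 (0.0642) without the second GFP array. It was also lost with a pseudocount of 1 (2.14, 0.0525) and with the Actb covariate (1.63, 0.159).

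Sgce, which codes for a sarcoglycan of the muscle and nerve membrane, measured 340.2 and 336.8 on CapH2, 294.4 and 523.5 on Smc2, 1410 and 978.9 on Smc1 and 563.3 and 447.7 on GFP. The Smc1 arrays were the highest, and 3 of the 4 condensin arrays were below both GFP arrays. The change was 1.20 (SE 0.289, adjusted p = 0.0240). Leaving out Smc1 replicate 1 gave 0.94 (adjusted p = 0.195), and the change was 1.36 (0.103) without GFP replicate 1 and 1.04 (0.137) without the second GFP array.

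Ndn codes for necdin, a protein of the Prader-Willi region that restrains cell division in neurons. It measured 1102 and 1056 on CapH2, 1233 and 1108 on Smc2, 2477 and 1882 on Smc1 and 841.1 and 748.5 on GFP. The Smc1 arrays were highest, the condensin arrays lay between, and the GFP arrays were lowest, with no overlap between the Smc1, condensin and GFP arrays. The change in the Smc1 knockdown was 1.43 (SE 0.193, adjusted p = 0.00310). The 4 other bright Ndn probe sets gave 1.31, 1.38, 1.44 and 1.40, and 3 dim ones, with means of 27.8, 23.9 and 7.71 units, gave 0.50, -0.44 and -0.12. Ndn was called under all 19 alternative settings tried, each left-out array included.

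Gnas codes for the stimulatory G protein alpha subunit and related transcripts, some of them imprinted in opposite directions. It measured 5148 and 5271 on CapH2, 5072 and 5576 on Smc2, 8934 and 8945 on Smc1 and 4766 and 5006 on GFP. Their Smc1 mean was 1.83 times that of GFP, and the other 6 arrays lay between 4766 and 5576. The change was 0.87 (SE 0.129, adjusted p = 0.00397) and kept its size, 0.87, without Smc1 replicate 1, where the call was lost (adjusted p = 0.0569). The other 4 Gnas probe sets were dim, with changes of 0.69, -0.48, 0.42 and 0.23, and the mean over all of them was not called (0.34, adjusted p = 0.421).

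Mest, an alpha/beta hydrolase of mesoderm, measured 1506 and 1274 on CapH2, 1561 and 958.0 on Smc2, 1945 and 1484 on Smc1 and 936.8 and 928.2 on GFP. The Smc1 arrays were above GFP but overlapped the condensin arrays, which were themselves all above GFP. The change of 0.85 (SE 0.247, adjusted p = 0.0462) was just past the threshold. It was called under 6 of the 19 alternative settings: it was 0.66 (adjusted p = 0.287) without Smc1 replicate 1 and 1.05 (0.066) with that array as the only Smc1 array. Leaving out GFP replicate 1 gave 0.86 (0.203), its partner 0.85 (0.162), and CapH2 hairpin 3 or hairpin 4 0.85 (0.0521 and 0.0513). With the Actb covariate it was 0.38 (0.366). That ratio was 1.70 and 1.84 in the Smc1 group, 1.67 to 2.18 on the condensin arrays and 2.18 and 2.04 on GFP, and its part in the result was not tested further.

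Peg3 was the exception in direction. It codes for a zinc finger protein that restrains other genes and affects maternal behaviour and growth. It measured 2526 and 2151 on CapH2, 1900 and 2019 on Smc2, 996.3 and 1220 on Smc1 and 2015 and 2319 on GFP. Both Smc1 arrays were below the 6 others, at 0.511 of the GFP mean. The change was -0.96 (SE 0.181, adjusted p = 0.00989), and the 2 other probe sets above 100 units gave -0.83 and -1.89. Leaving out Smc1 replicate 1 gave -0.82 (adjusted p = 0.103), and the change was -1.06 (0.0626) without GFP replicate 1 and -0.86 (0.0734) without the second GFP array. Usp29 and Zim1, the other Peg3 cluster genes on the list, were too dim to test, with 6.75 to 35.2 and 4.62 to 37.0 units.

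**Figure D2:**
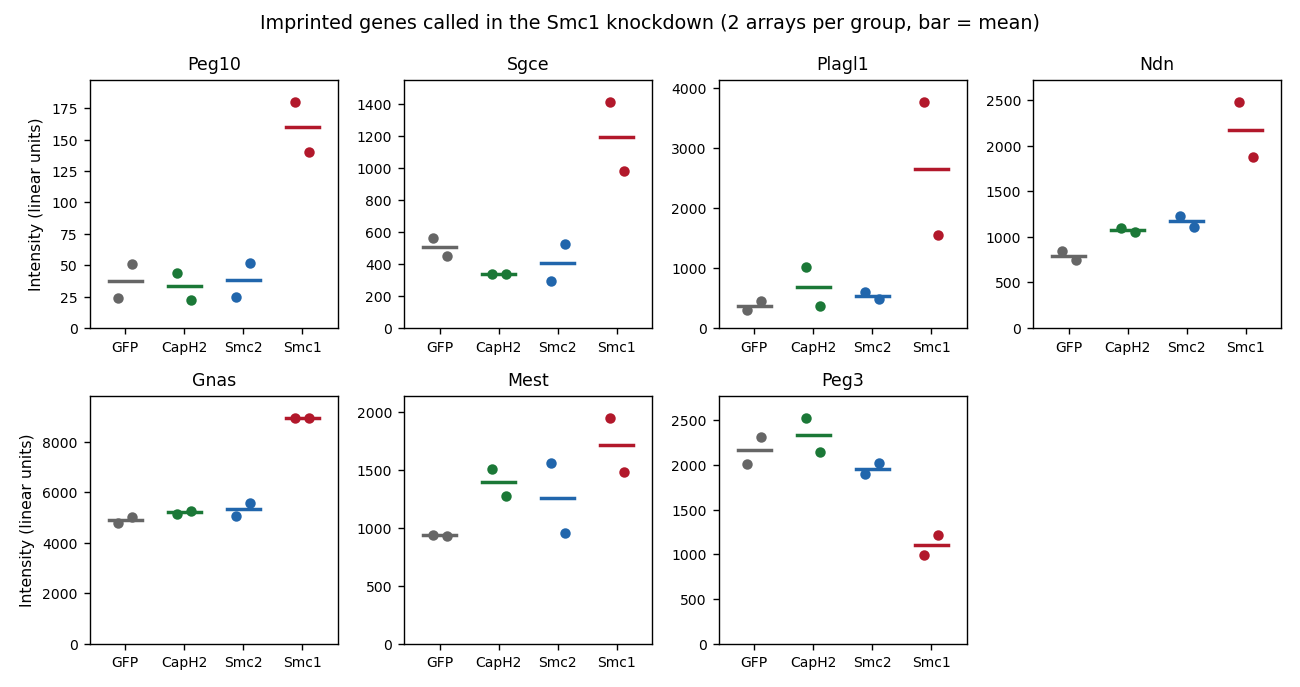
Intensity on each array (points, linear units, axis from 0) and group mean (bar, n = 2 arrays) of the 7 imprinted genes called in the Smc1 knockdown against GFP. In 6 panels both Smc1 points lie above both GFP points, and in the Peg3 panel (996.3 and 1220 against 2015 and 2319) both lie below.

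The Smc1 knockdown was then set against the mean of the CapH2 and Smc2 knockdowns, which tests the difference between the cohesin and the condensin effects. GFP values do not enter this difference, but the GFP arrays enter its pooled spread. Plagl1 (2.04, SE 0.419, adjusted p = 0.0211), Peg10 (1.80, adjusted p = 0.0253), Sgce (1.64, 0.00712), Ndn (0.93, 0.0127) and Gnas (0.76, 0.00669) were called higher in Smc1, and Peg3 (-0.94, 0.00969) lower. Mest was not called (0.38, adjusted p = 0.323). These were 6 of the 30 genes, where 7.75% of all genes were called, 5.53% higher and 2.23% lower; without Peg10, which entered through the Smc1 arrays, they were 5 of 29. The median over the 30 was 0.13, against 0.02 over all genes. Without Smc1 replicate 1 the calls numbered 0, with changes of 1.40 for Plagl1, 1.63 for Peg10, 1.39 for Sgce, 0.74 for Ndn, 0.76 for Gnas and -0.80 for Peg3. Peg10 alone lost its call without Smc1 replicate 2 (1.96, adjusted p = 0.0908) or without CapH2 hairpin 4 (1.64, 0.0616). All 6 calls remained without either GFP array, where the calls over all genes went from 961 to 582 and 567.

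The cluster of Peg10 and Sgce was followed further, gene by gene in chromosomal order, from Calcr to Asb4. This view was chosen after the values had been seen. Of 15 genes in that order, 14 were measured and 9 were tested, and 5 of the 9 were called higher in the Smc1 knockdown against GFP, with 0 lower. Without Peg10, which entered through the Smc1 arrays, 4 of 8 were called. Over all genes tested, 9.30% were called higher and 4.69% lower in that comparison. Beside Peg10 and Sgce these were Gng11, a G protein gamma subunit, Casd1, a sialic acid O-acetyltransferase, and Pon2, a paraoxonase, none of them on the list of 41. Casd1, next to Sgce, measured 928.0 and 671.9 on CapH2, 1035 and 923.7 on Smc2, 1790 and 1446 on Smc1 and 510.8 and 562.5 on GFP (change 1.56, adjusted p = 0.00327). Pon2 measured 264.4 and 105.9, 210.8 and 180.9, 400.4 and 393.4, and 72.6 and 98.9 in the same order (2.03, adjusted p = 0.00790). Gng11 measured 86.8 and 64.1, 69.1 and 78.9, 280.3 and 138.4, and 31.7 and 40.0 (2.05, adjusted p = 0.00929).

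In all 3 of these genes the condensin arrays lay between GFP and Smc1, unlike Sgce and Peg10, where they did not exceed the GFP mean by more than 1 SE of the change. The genes between them were not called: Bet1 stood at -0.05, Col1a2 at -0.04, Pon3 at 0.00 and Ppp1r9a, a neurabin known for maternal expression, at 0.40 (adjusted p = 0.187). All 3 calls were lost without Smc1 replicate 1, where Casd1 stood at 1.41 (adjusted p = 0.0501), Pon2 at 2.02 (0.0793) and Gng11 at 1.58 (0.106). Those of Pon2 (1.85, 0.0862) and Gng11 (1.93, 0.0817) were also lost without GFP replicate 1, and with the Actb covariate (1.38, 0.0658, and 1.76, 0.0721). Against the condensin knockdowns Casd1 (0.86, adjusted p = 0.0245) and Gng11 (1.24, 0.0481) were higher and Pon2 was not called (1.06, 0.0703). The Gng11 call there was lost when any array other than Smc1 replicate 2 was left out (0.77 to 1.33, adjusted p = 0.0548 to 0.435) and held in 5 of 19 alternative settings. Casd1 held in 14 of 19, and its call was lost without Smc1 replicate 1 (0.71, 0.258), Smc1 replicate 2 (1.01, 0.0636), CapH2 hairpin 4 (0.75, 0.0598) or either GFP array (0.86, 0.0505 and 0.051).

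**Figure D3:**
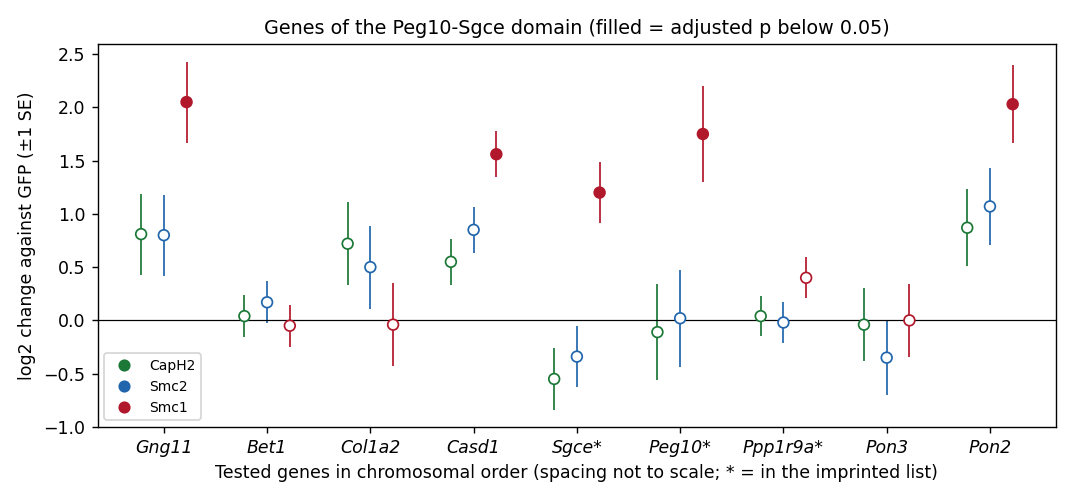
Log2 change against GFP (± 1 SE, n = 2 arrays per group) of the 9 tested genes of the Peg10-Sgce domain, in chromosomal order with spacing not to scale; filled points have an adjusted p below 0.05. In the Smc1 knockdown Gng11, Casd1, Sgce, Peg10 and Pon2 lie between 1.20 and 2.05, while Bet1, Col1a2, Ppp1r9a and Pon3 lie between -0.05 and 0.40.

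The remaining 3 genes of the list in this domain, Calcr (calcitonin receptor), Tfpi2 (a protease inhibitor) and Asb4 (a ubiquitin ligase adaptor), are known for maternal expression in some tissues. They stayed below the filter and have no test. Calcr ranged from 6.05 to 65.5 units and Tfpi2 from 26.9 to 59.98. Asb4 measured 75.1 and 65.0 in the Smc1 group, 2.91 and 5.12 in GFP and 8.27 to 50.3 on the condensin arrays, and its second probe set measured 58.5 and 37.9, 6.95 and 2.99, and 5.91 to 33.7. Both Smc1 values were the highest in each probe set, at levels near or below the array medians.

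The Kcnq1ot1 cluster on chromosome 7 gave 0 calls among 8 genes tested in each of the 5 comparisons. Over all genes tested, 14.0% were called in Smc1 against GFP, 7.75% in Smc1 against the condensin knockdowns and at most 0.0161% in the others. In Smc1 against GFP the median of the 8 was 0.08. Of the 8, 2 had an unadjusted p below 0.05 in limma, 25.0% beside 31.2% of all genes. Cdkn1c, an inhibitor of cyclin-dependent kinases and a brake on growth, measured 908.4 and 651.7 on CapH2, 977.4 and 701.3 on Smc2, 1054 and 746.7 on Smc1 and 545.3 and 459.9 on GFP. Both GFP arrays were lowest in it, and its changes were 0.81 in Smc1 (adjusted p = 0.0654), 0.60 in CapH2 (0.386) and 0.71 in Smc2 (0.324). Ascl2, a transcription factor of the trophoblast, measured 133.6 and 121.0, 39.5 and 130.0, 76.6 and 127.4, and 175.0 and 333.5 in the same order. It was highest on the GFP arrays, which differed by 1.91-fold, with changes of -1.17 (adjusted p = 0.125), -0.85 (0.472) and -1.52 (0.274).

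Phlda2, a growth-restraining gene of the placenta, measured 4637 and 5286 on CapH2, 5808 and 2800 on Smc2, 5368 and 2717 on Smc1 and 3705 and 2608 on GFP. Its arrays differed within groups by as much as between them, and the Smc1 and GFP values overlapped (0.30, adjusted p = 0.627). Cd81, a tetraspanin and the brightest gene of the list, measured 9571 and 10580, 8644 and 12850, 11460 and 13150, and 13490 and 12320 in the same order (-0.07, adjusted p = 0.823). Nap1l4, a histone chaperone, measured 3441 and 3220, 3551 and 3040, 3336 and 3419, and 3107 and 2887 (0.17, adjusted p = 0.474). Kcnq1ot1 itself, the paternally expressed long RNA of the cluster, ranged from 411.9 to 547.7 units on its brightest probe set (0.11, adjusted p = 0.751). Other probe sets of this RNA, with means of 145 and 222 units, gave 0.98 and -0.18 in Smc1 without a test, and dimmer ones -0.60 to 0.25. Tssc4 ranged from 490.8 to 704.2 and Slc22a18 from 95.9 to 200.9, with changes of 0.06 and -0.45.

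In the Snrpn-Ube3a cluster, the Prader-Willi and Angelman region, Ndn was the only call among 6 genes tested in the Smc1 knockdown against GFP. That is 16.7% of the 6, beside 14.0% of all genes tested. Ube3a, the maternally expressed ubiquitin ligase, measured 2829 and 3413 on CapH2, 3360 and 3754 on Smc2, 3574 and 3189 on Smc1 and 3456 and 2442 on GFP. Its groups overlapped (0.22, adjusted p = 0.489). Mkrn3, a ring finger protein, ranged from 196.0 to 360.4 and was lowest on the 2 Smc1 arrays (-0.47, adjusted p = 0.193). Magel2 and Peg12 were dim, from 48.2 to 121.0 and from 34.4 to 100.6 units (0.03 and 0.91, adjusted p = 0.968 and 0.137). The probe set that lists Snrpn alone was also dim, from 38.1 to 101.1 units (0.41, adjusted p = 0.441). The 4 bright probe sets that list Snrpn together with Snurf, with which it shares a transcript, ranged from 793.4 to 2783 and were not tested. On them the Smc1 minus GFP difference was 0.03 to 0.31, and it was -0.52 to -0.22 for CapH2 and -0.43 to -0.29 for Smc2.

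Igf2, the paternally expressed growth factor, measured 3088 and 1373 on CapH2, 1209 and 2935 on Smc2, 3385 and 2362 on Smc1 and 2619 and 3063 on GFP. The Smc1 and GFP arrays overlapped (-0.00, SE 0.431, adjusted p = 0.998), while CapH2 hairpin 4 and Smc2 hairpin 1 were the low arrays of their groups, 2.25-fold and 2.43-fold below the other hairpin. The probe set that lists H19 together with the microRNA gene Mir675, which lies inside it, measured 1526 and 916.9, 747.9 and 1828, 1372 and 1506, and 1642 and 2012 in the same order. The same hairpin arrays were the low ones in it, and the Smc1 minus GFP difference was -0.34, without a test. Igf2r, the maternally expressed receptor that clears Igf2, measured 681.5 and 722.6 on CapH2, 561.4 and 610.3 on Smc2, 607.4 and 786.8 on Smc1 and 572.8 and 715.2 on GFP. The Smc1 and GFP arrays overlapped in it (0.11, SE 0.209, adjusted p = 0.762), both CapH2 arrays lay above both Smc2 arrays (0.26, adjusted p = 1.0), and its second probe set gave 0.29.

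Among the genes outside those clusters, Grb10, a growth-restraining adaptor of the insulin receptor, measured 5125 and 6202 on CapH2, 6234 and 4526 on Smc2, 4997 and 3195 on Smc1 and 3723 and 2856 on GFP. All condensin arrays lay above both GFP arrays, and the Smc1 arrays overlapped GFP (0.29, adjusted p = 0.451). Slc38a4, an amino acid transporter, was read by 2 bright probe sets that went apart. The brighter measured 3355 and 4801 on CapH2, 3355 and 5696 on Smc2, 5017 and 4959 on Smc1 and 7339 and 7488 on GFP, so that every knockdown array was below GFP (Smc1 -0.57, adjusted p = 0.141). The dimmer measured 1762 and 2428, 1870 and 2732, 3579 and 2788, and 2355 and 1798 in the same order, with a Smc1 difference of 0.61, and no direction can be given for this gene.

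Impact, a regulator of translation, measured 2832 and 3732 on CapH2, 3351 and 3249 on Smc2, 2777 and 2298 on Smc1 and 3815 and 2824 on GFP. Its Smc1 arrays were the lowest (-0.38, adjusted p = 0.238). Zdbf2, a paternally expressed zinc finger gene, ranged from 266.5 to 1369, with CapH2 hairpin 3 and Smc2 hairpin 1 more than 2-fold above the other hairpin of each group (Smc1 change 0.35, adjusted p = 0.711). Nnat, a neuronatin of neural and fat tissue, ranged from 29.0 to 132.7 and was highest on the 2 Smc1 arrays (1.16, adjusted p = 0.108). Inpp5f, a phosphatase, ranged from 351.6 to 600.8, again with both Smc1 arrays highest (0.56, adjusted p = 0.0849). Copg2, a coat protein gene next to Mest, ranged from 1076 to 2197 (-0.36, adjusted p = 0.444). Rasgrf1, Dcn and Nap1l5 were not tested, at 4.07 to 87.4, 3.11 to 33.2 and 25.9 to 77.1 units. Over the 8 untested genes values ran from 2.91 to 87.4, 4 never exceeded an array median and 4 did so on 1 array.

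The condensin knockdowns against GFP ask which of these genes depend on condensin II (CapH2) or on both condensins (Smc2). In limma 0 of the 30 genes were called in either. At an unadjusted p below 0.05 there were 5 in CapH2 and 6 in Smc2, which is 16.7% and 20.0% of the 30, against 12.6% of all genes in each comparison. Over all genes 2 were called in CapH2 (0.0161%) and 2 in Smc2 (0.0161%). Medians over the 30 were 0.11 and 0.13, against 0.01 and -0.01 over all genes. Both CapH2 arrays lay above both GFP arrays for 10 of the 30 (33.3%, against 25.3% of all genes) and below for 5 (16.7%, against 21.9%). For Smc2 these numbers were 11 (36.7%, against 23.1%) and 4 (13.3%, against 21.7%). The 3 comparisons with GFP share the GFP arrays, so an array that is high or low there moves all of them.

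Grb10 was 0.79 above GFP in CapH2 (SE 0.244, adjusted p = 0.298) and 0.70 in Smc2 (0.299). Ndn was 0.44 above in CapH2 (adjusted p = 0.391) and 0.55 in Smc2 (0.304), and its arrays did not overlap GFP. Zdbf2 was 1.12 above in CapH2 (adjusted p = 0.433) and 1.31 in Smc2 (0.379), with the hairpin spread given above. The brighter Slc38a4 probe set was 0.88 below GFP in CapH2 (a change of -0.88, adjusted p = 0.248) and at -0.76 in Smc2 (0.279), against 0.01 and 0.13 for the dimmer. Of the genes called in Smc1, Plagl1 stood at 0.74 in CapH2 (adjusted p = 0.538) and 0.56 in Smc2 (0.643), Gnas at 0.09 (0.785) and 0.12 (0.708), Peg3 at 0.11 (0.827) and -0.14 (0.761), and Sgce at -0.55 (0.452) and -0.34 (0.632). Without Smc2 hairpin 2, leaving a lone Smc2 array whose spread is assumed to be like that of the other groups, Ascl2 (-2.22, adjusted p = 0.0447) and the brighter Slc38a4 probe set (-1.14, 0.0424) were called lower in Smc2.

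CapH2 against Smc2 gave 0 calls among the 30 genes in limma and 0 at an unadjusted p below 0.05; over all genes 1 was called (0.00807%) and 1.03% had an unadjusted p below 0.05. Differences ran from -0.33 (Magel2) to 0.67 (Ascl2), with a median of -0.08. Over the 120 pairs of arrays within a group (30 genes in 4 groups) the median fold between partners was 1.25, and 12 pairs exceeded 2-fold, the widest being Ascl2 in Smc2 (3.29), Zdbf2 in CapH2 (3.15) and Plagl1 in CapH2 (2.74).

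**Figure D4:**
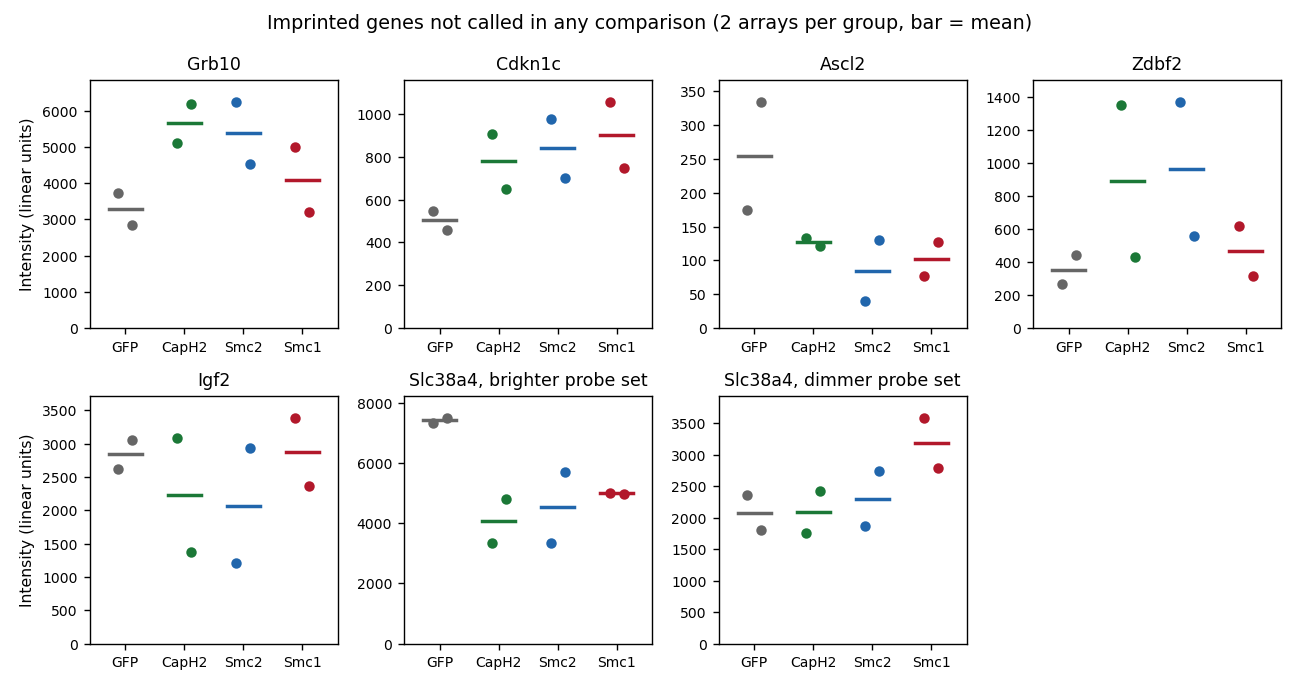
Intensity on each array (points, linear units, axis from 0) and group mean (bar, n = 2 arrays) for Grb10, Cdkn1c, Ascl2, Zdbf2, Igf2 and both probe sets of Slc38a4, none of them called in any comparison. The condensin points of Grb10 lie above GFP, the hairpins differ by more than 2-fold in Igf2 and Zdbf2, and the Slc38a4 probe sets go in different directions in Smc1 (-0.57 and 0.61).

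Factors known to set or keep imprints were taken from a list of 28 genes, of which 25 were tested. In the Smc1 knockdown 2 were called higher and 2 lower, 4 of 25 in all beside 14.0% over all genes, with a median of -0.03, and 0 were called in CapH2 or Smc2. Dnmt3b, a de novo DNA methyltransferase, measured 9522 and 4871 on CapH2, 12180 and 2928 on Smc2, 8532 and 8935 on Smc1 and 1850 and 2511 on GFP. All knockdown arrays lay above GFP, and the change was 2.01 in Smc1 (SE 0.532, adjusted p = 0.0344), 1.65 in CapH2 (0.305) and 1.46 in Smc2 (0.320). Yy1, a zinc finger factor that binds the Peg3 control region, was 0.51 higher in Smc1 (adjusted p = 0.0396). Tet2, which oxidises methylated DNA, fell by 1.07 on the log2 scale (adjusted p = 0.0158), and Suz12, a polycomb subunit, fell by 0.76 (adjusted p = 0.0240). Zfp57 (-0.32, adjusted p = 0.438), Trim28 (-0.03, 0.929), Dnmt1 (-0.29, 0.285) and Ctcf (-0.31, 0.245) were not called. Of the 4 calls, 0 remained when Smc1 replicate 1 or either GFP array was left out, 2 without Smc1 replicate 2, and 3 without CapH2 hairpin 3 or hairpin 4. With the Actb covariate 0 remained, and Dnmt3b stood at 0.65 (adjusted p = 0.298).

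The genes around the clusters gave a local background. Of 111 tested genes nearest to a cluster (3 on each side), 11 were called higher and 7 lower in the Smc1 knockdown, 16.2% in all against 14.0% over all genes, with a median of 0.00. In CapH2 and Smc2 limma called 0 of the 111, with 20 and 14 at an unadjusted p below 0.05. Next to the Mest cluster Podxl, a sialomucin, was 1.62 higher (adjusted p = 0.00785) and Tmem209 fell by 1.22 (0.00678), on opposite sides of Mest. Next to Gnas, Npepl1, a peptidase, was 0.86 higher (adjusted p = 0.0135). Next to Snrpn-Ube3a, Nipa1, a magnesium transporter, was 1.13 higher (adjusted p = 0.0374). The others called higher were Vapb, Vopp1, Abcg2, Ccser1, Sf3b5, Tbc1d2b, Slc38a1 and Klf7, from 0.53 to 2.82, and the others called lower were Fignl1, Cobl, Osbpl1a, Psma8, Slc25a13 and Pced1b, from -1.46 to -0.61. Of the 18 calls, 0 remained without Smc1 replicate 1 or GFP replicate 1, 4 without GFP replicate 2 and 9 without Smc1 replicate 2. With the Actb covariate 3 remained, those of Npepl1, Podxl and Tmem209.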

How the data were processed

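The 8 one-colour arrays fell into 4 groups of 2 by the knockdown label. The deposited values are intensity on a linear scale; per the file headers they cover 44903 probe sets, and the authors' way of summarising probes is not stated. Means trimmed by 2% were 488.9 to 490.0 on all arrays, a common scale, and none was added.

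Of these, 34771 probe sets list exactly 1 symbol and were used; 926 list several, 9206 list none, and 64 are array controls. Matching 34554 of them to RefSeq's gene table (GRCm38.p6) changed 0 symbols. The brightest probe set stood for each of 18140 genes, tested if above the array median on at least 2 arrays. All arrays entered 1 fit of log2(intensity + 16) in limma 3.58.1 (R 4.3.3), with group means and an intensity trend (4 residual, 5.97 prior degrees of freedom), tested on simulated data, with Benjamini-Hochberg over 12394 genes in each of 5 comparisons.

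The labels call the Smc1 and GFP arrays biological replicates; CapH2 and Smc2 arrays differ in hairpin, so the pooled spread mixes both. The genes and lists were chosen with earlier results of these data known. Values on each array are given for called genes, the 8 brightest, Igf2, Igf2r and the H19 probe set; imprint factors and neighbours are named if called, and any gene named beyond this was chosen after its values were seen. Alternatives changed the pseudocount, scaling, filter, probe set, variance trend, arrays fitted, replicate block and an RNA quality covariate, and left out each array.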

Additional observations from a re-analysis of the deposited data

Results flagged for a closer look

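In limma, 6 of 30 imprinted genes tested were called in the Smc1 knockdown against the mean of the condensin knockdowns, beside 7.75% of all genes. This tests the difference between the cohesin and the condensin effects. Peg10 passed the brightness filter only through the Smc1 arrays, and without it 5 of 29 were called. Smc1 had 1 hairpin, and how far these calls rest on Smc1 replicate 1 is given above. The differences were 2.04 for Plagl1, 1.80 for Peg10, 1.64 for Sgce, 0.93 for Ndn and 0.76 for Gnas, all higher in Smc1, and -0.94 for Peg3, lower in Smc1. Against GFP, Sgce was called higher in Smc1 (1.20) and lay at -0.55 in CapH2 and -0.34 in Smc2, neither of them called. Peg10 stood at 1.75 in Smc1, -0.11 in CapH2 and 0.02 in Smc2, and Peg3 at -0.96, 0.11 and -0.14 in that order. In both genes only the CapH2 sign differed from that of Smc1, and the CapH2 change was smaller than its SE (0.453 for Peg10, 0.181 for Peg3). None of these condensin changes was called. Ndn lay on the same side of GFP in all 3 knockdowns (1.43, 0.44 and 0.55).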

How the results depend on the processing

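Of 95 counts of called imprinted genes under the alternatives, 88 stayed within 1.5 times the main count and 7 moved. They include CapH2 against GFP, Smc2 against GFP and CapH2 against Smc2, where the main count was 0. There a count of 0 was scored as unchanged, so the 88 say little about the comparisons that had calls. A count within that range can also hold other genes than the main calls. Averaging all probe sets of a gene left 2 calls of 7 in Smc1 against GFP (Ndn and Peg10) and 1 of 6 against the condensin knockdowns (Peg10). Dim probe sets enter such a mean. Peg10 and Mest have 1 probe set each, so averaging could not change their values. The Mest change stayed at 0.85 where its call was lost (limma adjusted p = 0.0556). Leaving out each array in turn gave 1 to 10 calls in Smc1 against GFP, 0 to 2 in Smc2 against GFP and 0 to 6 in Smc1 against the condensin knockdowns. The lowest counts came without Smc1 replicate 1 (1 and 0), and 2 and 3 calls remained without GFP replicate 1 and replicate 2. Over all genes, Smc1 against GFP then had 138, 228 and 555 calls in place of 1734.

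With a replicate block for the shared replicate numbers of Smc1 and GFP, 5 calls remained in Smc1 against GFP (Peg10 at an adjusted p of 0.0519 and Mest at 0.0677 were lost). The paired deviations correlated at r = 0.067, so the arrays were taken to share only a number. With the Actb covariate 4 calls remained and Zdbf2 was added. Of 245 log2 changes of called imprinted genes under the alternatives, 48 lost their call and 0 reversed; of 719 for the other named genes, 236 lost their call and 0 reversed. Median centring moved the median of all genes in Smc2 against GFP from -0.01 to 0.10. Dim genes such as Peg10 and Asb4 are limited by the signal near background.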

Other observations

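Other genes inside the imprinted clusters but not on the list also differed in the Smc1 knockdown. They were chosen after their values were seen. Of 17 such genes tested, 4 were called higher against GFP and 0 lower, 23.5% in all against 14.0% over all genes, and 0 were called in CapH2 or Smc2, with 4 and 2 at an unadjusted p below 0.05. Besides Gng11, Casd1 and Pon2 this was Blcap, the host gene of Nnat, at 902.2 and 901.2 in Smc1, 460.9 and 530.3 in GFP and 526.5 to 662.6 on the condensin arrays (0.85, limma adjusted p = 0.0199). Its call was lost without any Smc1 or GFP array (0.75 to 0.94, adjusted p = 0.0685 to 0.153). With the Actb covariate 1 of the 4 calls remained, that of Casd1.

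Airn, the paternally expressed long RNA that overlaps Igf2r, measured 175.5 and 109.3 in Smc1, 37.7 and 66.3 in GFP and 38.5 to 56.9 on the condensin arrays. Both Smc1 arrays were the highest. It was not called against GFP (1.22, adjusted p = 0.0593) and was called against the condensin knockdowns (1.28, 0.0441), a call that held in 2 of 17 alternatives. Igf2r on the opposite strand did not pass the test (0.11, 0.762). Gpr1, in the Zdbf2 domain, measured 193.6 and 267.8 on Smc1, 79.5 and 115.7 on GFP and 66.3 to 112.7 on the condensin arrays (1.12, adjusted p = 0.0502, against GFP; 1.20, 0.0345, against the condensin knockdowns). The Gpr1 call against the condensin knockdowns held in 12 of 19 alternative settings. It was lost without Smc1 replicate 1 (1.41, 0.185), Smc1 replicate 2 (0.98, 0.216), CapH2 hairpin 4 (1.03, 0.0842) or either GFP array (1.20, 0.0527 and 0.054), with no filter (1.20, 0.067) and with only the arrays compared (1.20, 0.0518).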
